A study of Mus musculus with 6 samples.

Results

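The miR-199 and miR-214 microRNAs of mouse kidney arteriolar smooth muscle cells were measured with 5 probes of a miRNA microarray, which hold 25 of its 2995 miRNA spots at 5 spots a probe. The 5 probes, mmu-miR-214, mmu-miR-214*, mmu-miR-199a-3p, mmu-miR-199a-5p and mmu-miR-199b*, were taken by name, and all 5 were detected in 6 of 6 samples. They are written without the species prefix in most places below. The cells were a primary line of arteriolar smooth muscle cells (aSMCs) from the renin cell lineage of mixed 129Sv/C57Bl6 mice, at passage 7 in every sample. The 3 forskolin cultures received 10 µM forskolin, which activates adenylyl cyclase, and 100 µM IBMX, which blocks the breakdown of cyclic AMP, for 24 h, with a second dose of 10 µM forskolin in the last 30 min. The 3 control cultures had no treatment, and the labels name no vehicle. All cultures came from 1 line, so the spread between them is that of independently grown cultures and not of animals. The treatment was meant to induce renin, per the title of the series.

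A microRNA is cut from a hairpin in a longer transcript, and either arm of the hairpin can be loaded into the silencing complex, where its seed pairs with target messages. In mouse, miR-214 and one copy of miR-199a are made from Dnm3os, a long noncoding RNA on the opposite strand of the dynamin gene Dnm3, and the transcription factor Twist1 is known to drive it during development. These miRNAs are known from mesenchymal tissues, where they have been studied in skeletal development and fibrosis, including fibrosis of the kidney. In the older naming of the array a star marks the arm then held to be the minor one.

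The targets of the 5 probes are shown with the seed, bases 2 to 8, in capitals, because the seeds decide which members could act on the same messages. miR-199a-5p and miR-199b* share a seed and differ by 1 substitution over 23 bases, C10U, counted from the 5′ end of miR-199a-5p. Each of the other 3 seeds is held by 1 member.
miR-214: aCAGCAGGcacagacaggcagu
miR-214*: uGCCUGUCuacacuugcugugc
miR-199a-3p: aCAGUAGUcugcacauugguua
miR-199a-5p: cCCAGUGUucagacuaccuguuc
miR-199b*: cCCAGUGUuuagacuaccuguuc

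Of the other probes of the array, miR-761 alone shared a seed with a member, that of miR-214. It was detected in 0 of 6 samples. Closely related miRNAs can bind each other's probes, so miR-199a-5p and miR-199b* are not independent measurements.

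All 5 targets matched RefSeq hairpins of build GRCm38.p6, and 4 of them also matched a mature record. The hairpins are shown with both arms in capitals, 5′ arm first, because they show which loci hold the target of each probe. Mir214 lies at chr1:162223368-162223477 and Mir199a-2 at chr1:162217814-162217923, both on the plus strand. Both lie inside Dnm3os, a noncoding RNA gene at chr1:162217623-162225550, with 5444 bases between the hairpins. Mir199b lies at chr2:32318460-32318569, on the plus strand and inside the span of Dnm1. A second copy of miR-199a, Mir199a-1, lies at chr9:21496495-21496564 on the minus strand, inside the span of Dnm2. Exon structure was not used here.
Mir214: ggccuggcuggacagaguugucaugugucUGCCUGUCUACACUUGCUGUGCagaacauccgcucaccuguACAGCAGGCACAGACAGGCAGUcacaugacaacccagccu
Mir199a-2: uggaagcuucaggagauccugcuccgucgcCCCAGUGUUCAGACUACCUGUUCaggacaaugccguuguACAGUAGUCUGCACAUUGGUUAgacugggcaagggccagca
Mir199b: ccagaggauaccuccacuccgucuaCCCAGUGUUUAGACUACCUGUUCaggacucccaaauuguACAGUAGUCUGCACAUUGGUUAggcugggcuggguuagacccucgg

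The miR-199a-3p target stands in Mir199a-2, Mir199a-1 and Mir199b alike, at chr1:162217883-162217904, chr9:21496498-21496519 and chr2:32318524-32318545. That of miR-199a-5p stands in Mir199a-2 and Mir199a-1, at chr1:162217844-162217866 and chr9:21496537-21496559. miR-199b*, at chr2:32318485-32318507, and the 2 arms of Mir214, miR-214* at chr1:162223397-162223418 and miR-214 at chr1:162223438-162223459, each had 1 locus. The targets were searched only in the hairpins Mir214, Mir199a-2, Mir199a-1 and Mir199b. Within them, miR-214 and miR-214* match Dnm3os alone, miR-199a-3p and miR-199a-5p match Dnm3os and other loci, and miR-199b* matches the Dnm1 locus. These are matches of sequence, and the miR-199b* probe may also bind miR-199a-5p from the other loci.

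Each sample was stained with 1 dye, Cy5 for forskolin 1, forskolin 3 and control 2 and Cy3 for the other samples. The empty spots averaged 131 to 200 intensity units in Cy3 samples and 31.6 to 34.9 in Cy5 samples. The number of detected probes was 175, 585 and 197 in forskolin samples and 162, 166 and 225 in controls, so forskolin 2 stood apart. It was not left out of the comparisons, and values without it are among the alternatives.

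The arms of Mir214 lay far apart in the order of brightness. With the mean of the empty spots subtracted, miR-214 read 19446, 20376 and 17311 in forskolin cultures 1 to 3, against 20096.5, 9878 and 22976 in control cultures 1 to 3. It was among the brightest probes of the array in each sample, ranked 12, 12 and 17 in forskolin cultures and 8, 12 and 5 in controls. The 5′ arm, miR-214*, read 19.0, 75.5 and 44.4 in forskolin cultures, against 80.3, 13.7 and 174 in controls. Its mean stood 4.18 to 10.7 SD of the empty spots above their mean in forskolin cultures and 5.62 to 12.1 SD in controls, and it ranked 150 to 162 in forskolin cultures and 128 to 142 in controls. The 10.7 SD was that of forskolin 2, where 585 probes were detected. Probes differ in how well they bind, so these brightnesses do not give a ratio of molecules.

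The arms of miR-199 also differed in brightness. The 3′ arm, miR-199a-3p, read 20835.5, 20733.5 and 20733.5 above the empty spots in forskolin cultures and 19635, 12019 and 20808 in controls, at ranks 11 to 13 and 8 to 10. miR-199a-5p read 1047, 1286 and 761 in forskolin cultures and 1513, 386 and 3462 in controls, at ranks 62 to 70 and 54 to 62. miR-199b* read 95.4, 248 and 116 in forskolin cultures and 204, 32.5 and 1145 in controls, at ranks 112 to 119 and 81 to 109. In both families the brighter probe was that of the 3′ arm, and the miR-199a-3p probe can bind the product of 3 loci. These readings are not scaled between samples, and control 2, stained with Cy5, was the dimmest of the 6 for each of the 5 probes.

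**Figure D1:**
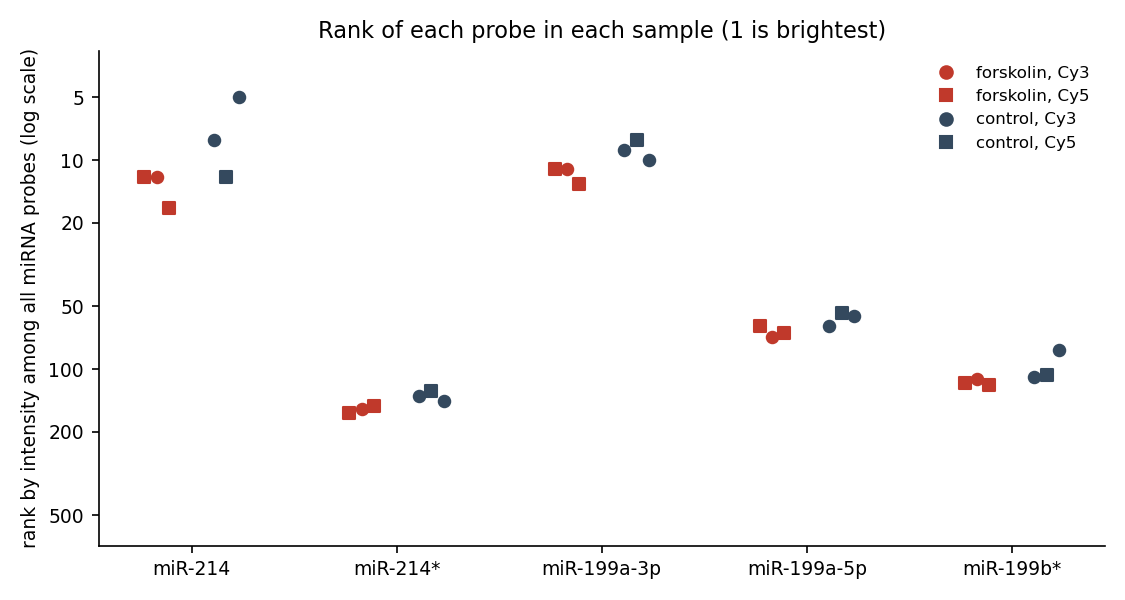
Rank by intensity among all miRNA probes (log axis, 1 is brightest) for the 5 probes, with 3 forskolin samples left and 3 control samples right for each, circles for Cy3 and squares for Cy5. miR-214 and miR-199a-3p sat between ranks 5 and 17, and miR-214* between 128 and 162.

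The comparison of forskolin with control cultures asks which of these miRNAs differ after the treatment. All 5 probes had a negative log2 fold change, from -0.63 for miR-199a-5p to -0.18 for miR-199a-3p, though 3 of them turned positive with no normalization between samples. None passed an adjusted p of 0.05 in limma. At that threshold 10 of the 167 tested probes passed, a background of 5.99%, and 3.59% passed as lower. At an unadjusted p under 0.05, 1 of the 5 was lower, miR-199a-5p, against 8.38% of tested probes. Each log2 fold change is the forskolin term of a fit that also holds the dye, on intensities corrected by normexp with an offset of 50 and quantile-normalized. Levels below are log2 values on that scale, given as mean ± SD with 3 samples a group. A change in the level per cell and a change in the mix of cells cannot be told apart in these cultures.

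Matched to Dnm3os alone among the hairpins searched were miR-214, which in mouse muscle is known to repress the chromatin enzyme Ezh2, and miR-214*. mmu-miR-214 was at 14.10, 14.10 and 13.69 in forskolin cultures, against 14.36, 14.10 and 14.61 in controls. The groups met at 1 value, since quantile normalization gives samples of the same rank the same value, and rank 12 was held in forskolin 1, forskolin 2 and control 2. The means were 13.96 ± 0.24 in forskolin cultures and 14.35 ± 0.26 in controls, with a log2 fold change of -0.30, SE 0.22, 95% interval -0.83 to 0.24, at an adjusted p of 0.550. mmu-miR-214* was at 6.73, 6.81 and 6.88 in forskolin cultures, against 7.14, 7.28 and 6.99 in controls. Every forskolin sample was below every control. Its log2 fold change was -0.37, SE 0.20, 95% interval -0.85 to 0.11, at an adjusted p of 0.390.

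mmu-miR-199a-3p, which in human liver cancer cells is known to repress the kinase mTOR and the receptor Met, was at 14.17, 14.17 and 14.01 in forskolin cultures. It was at 14.29, 14.36 and 14.25 in controls, and the groups did not overlap. Its log2 fold change was the smallest of the 5, -0.18, SE 0.20, 95% interval -0.65 to 0.29, at an adjusted p of 0.710. The interval includes 0 and reaches changes of the size fitted for miR-199a-5p.

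mmu-miR-199a-5p, a repressor of caveolin-1 in human lung fibroblasts, was at 10.19, 9.74 and 9.95 in forskolin cultures, against 10.19, 10.70 and 10.54 in controls. The highest forskolin sample had the same value as the lowest control, again a shared rank (62), and the other samples did not overlap. The means were 9.96 ± 0.22 in forskolin cultures and 10.47 ± 0.26 in controls. The log2 fold change was -0.63, SE 0.22, 95% interval -1.14 to -0.12, which is 1.54-fold lower, with a p of 0.0230 and an adjusted p of 0.167 in limma. It was the 17th lowest of the 167 fitted changes.

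mmu-miR-199b*, studied in mouse heart muscle, was at 7.62, 7.81 and 7.56 in forskolin cultures, against 7.91, 7.96 and 9.05 in controls. The groups did not overlap, and control 3 stood apart from the other controls by more than 1 log2 unit, so the SD was 0.13 in forskolin cultures and 0.64 in controls. The log2 fold change was -0.52, SE 0.33, 95% interval -1.30 to 0.27, at an adjusted p of 0.455. Without control 3 it was -0.25, or -0.22 when forskolin 3 was left out as well. On this scale control 3 also had the highest value of miR-214 but not of miR-214*, miR-199a-3p or miR-199a-5p. For miR-199a-5p the scale mattered. Control 3 was its highest sample in the intensities the authors deposited, at 1649 against 1202 and 1510 in controls 1 and 2. It was also the highest with cyclic loess normalization, at 10.87 against 10.41 and 10.41.

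**Figure D2:**
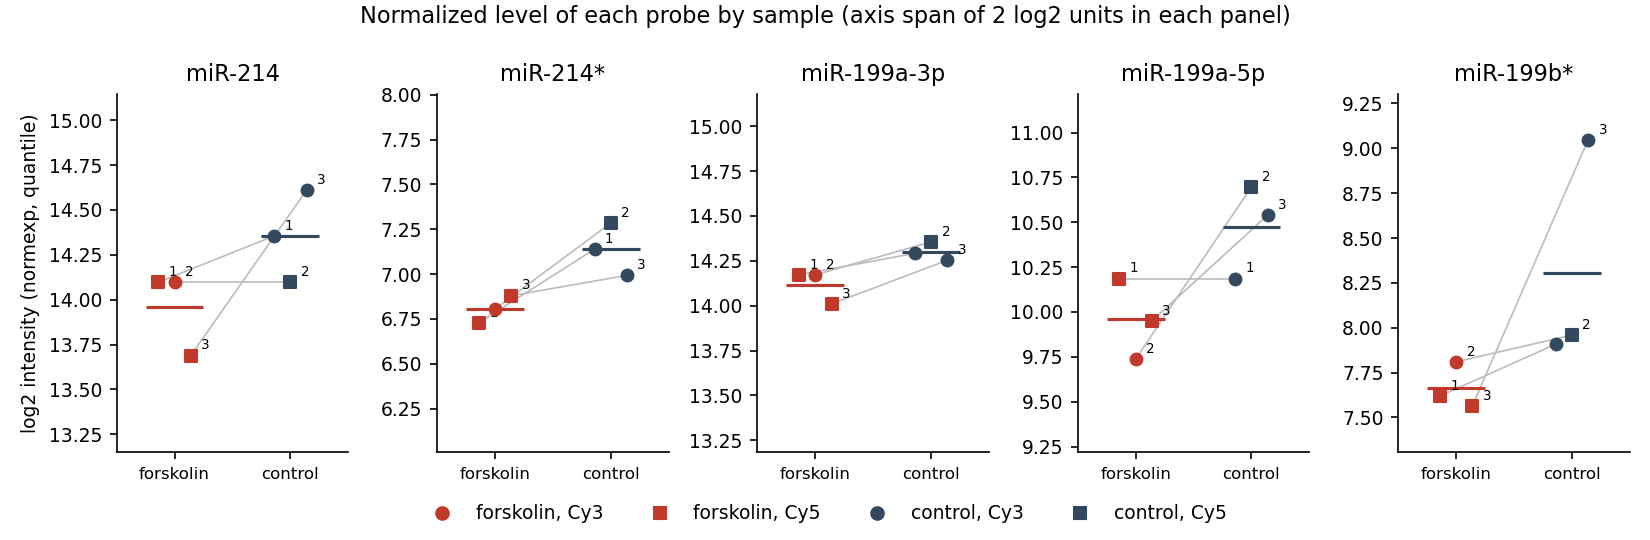
Normalized log2 intensity of each probe in 3 forskolin and 3 control samples, with grey lines joining samples of the same replicate number (digits), bars for group means, circles for Cy3 and squares for Cy5. Forskolin and control values do not overlap for miR-214*, miR-199a-3p and miR-199b*, and share 1 value for miR-214 and miR-199a-5p.

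Read against all tested probes, the 5 sat on the lower side. All 5 fitted log2 fold changes were below 0, as were 52.1% of the tested probes, and their median was -0.37, against -0.014 over the 167. Non-overlap with forskolin lower held for 3 of 5, with a background of 13.2%. Samples of the same replicate number deviated together and were taken as pairs, as described with the processing, and 3 of 5 were lower in 3 of 3 pairs, as were 25.7% of tested probes. miR-199a-5p in pair 1 and miR-214 in pair 2 had a difference of 0 by the shared ranks. With the replicate number as a block, 0 of 5 passed, with a background of 7.19% lower, and the smallest adjusted p was 0.158, for miR-199a-5p. That fit gave every tested probe the same SE, 0.30, from a spread pooled over all tested probes. A probe's own spread therefore did not enter its p there. The 5 probes are not 5 separate observations. miR-214 and miR-214* are arms of the same hairpin, Mir214 and Mir199a-2 lie in the same transcript, and the miR-199 probes match shared or related hairpins. With no normalization between samples the direction was not kept, since miR-214, miR-199a-3p and miR-199a-5p had log2 fold changes of 0.41, 0.41 and 0.15 there, while the median of all tested probes moved to 0.48. Without both samples of replicate 3 the median of the 5 was -0.22.

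**Figure D3:**
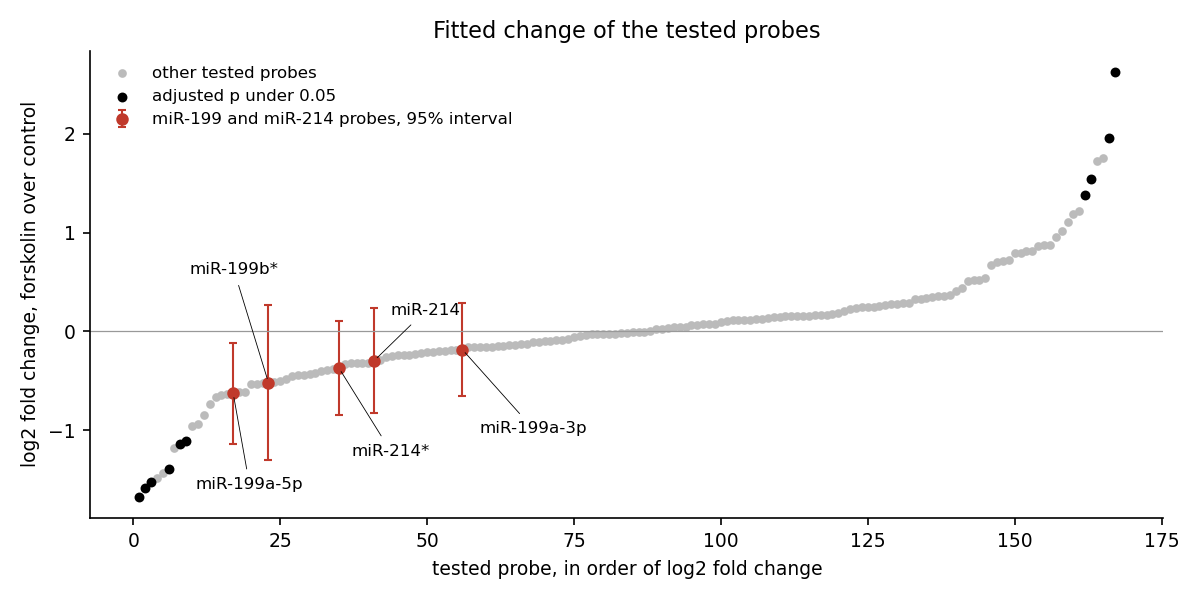
Fitted log2 fold change of forskolin over control for the 167 tested probes in rank order, with the 10 probes at an adjusted p under 0.05 in black and the 5 miR-199 and miR-214 probes in red with 95% intervals. With quantile normalization all 5 lie below 0 (2 of 5 did with no normalization), and the interval of miR-199a-5p alone stays below 0.

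In the authors' deposited table, which is scaled between samples in a way not stated in the sources used here, the groups of all 5 probes parted. The background there was 16.8% of tested probes with forskolin lower. miR-214 read 16887, 16149 and 13028 in forskolin cultures, against 20368, 18677 and 23117 in controls. The forskolin samples of miR-214 were all below the lowest control, with no shared value. miR-214* read 32, 36 and 44 in forskolin cultures, against 63, 64 and 56 in controls, and was low throughout. miR-199a-3p read 18269, 16648 and 15360 in forskolin cultures, against 20197, 22142 and 21026 in controls.
Among the miR-199 5′ arms, miR-199a-5p read 1044, 854 and 769 in forskolin cultures, against 1202, 1510 and 1649 in controls. The deposited intensities of miR-199b* were 120, 150 and 107 in forskolin cultures and 158, 181 and 381 in controls, so control 3 was again the high one. As ratios of the authors' deposited group means, forskolin over control, miR-199a-3p was at 0.793, miR-214 at 0.741, miR-214* and miR-199a-5p at 0.612 each, and miR-199b* at 0.524. When limma was run on these deposited values with no further normalization, an alternative chosen after seeing the data, the smallest adjusted p of the 5 was 0.138, for miR-199a-5p. With cyclic loess in place of quantile normalization the groups of all 5 also parted, again with a background of 16.8%.

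**Figure D4:**
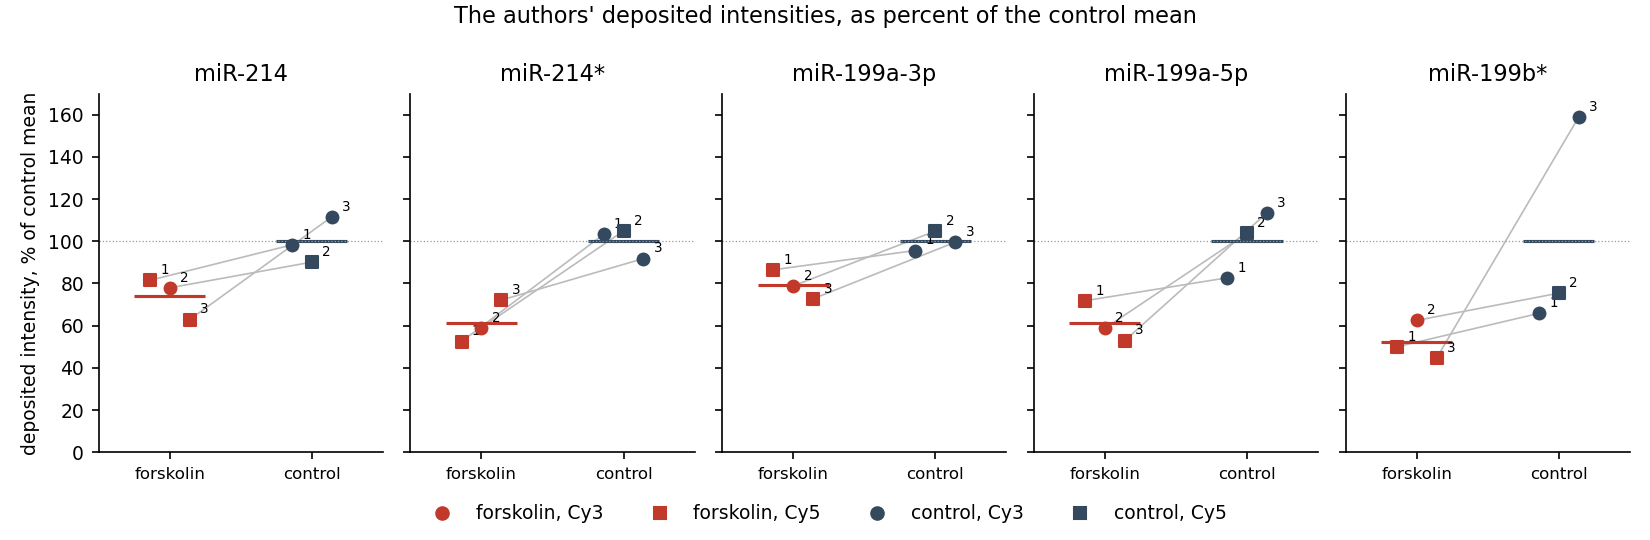
The authors' deposited intensities as percent of the control mean of each probe, in 3 forskolin and 3 control samples, with grey lines joining the same replicate number (digits), bars for group means, circles for Cy3 and squares for Cy5. For each probe every forskolin sample lies below every control sample, and control 3 of miR-199b* is the highest point.

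The 2 dyes gave the same direction for each of the 5 probes. Within Cy5, with 2 forskolin and 1 control sample, the differences in log2 level between forskolin and control were from -0.63 for miR-199a-5p to -0.20 for miR-214. Within Cy3, with 1 forskolin and 2 control samples, they were from -0.67 for miR-199b* to -0.10 for miR-199a-3p. No test was made within a dye, and the share of all tested probes with 1 direction in both dyes was not counted. The 1 forskolin sample in Cy3 was forskolin 2, which had 585 detected probes. The 1 control in Cy5 was control 2, the dimmest sample for each of the 5 probes.

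Strand use can be compared between groups as the difference of 2 probes within a sample, which shows only whether they changed unequally. miR-214 minus miR-214* was 7.37, 7.29 and 6.81 in forskolin cultures, against 7.22, 6.81 and 7.62 in controls. The groups overlapped, and the difference between the group means was -0.060, with an exact two-sided permutation p of 0.9. miR-199a-5p minus miR-199a-3p was -3.99, -4.43 and -4.06 in forskolin cultures, against -4.11, -3.66 and -3.71 in controls. The difference between the group means was -0.33, with 1 control among the forskolin values, at an exact permutation p of 0.3. miR-199a-5p minus miR-199b* was 2.57, 1.93 and 2.39 in forskolin cultures, against 2.28, 2.74 and 1.49 in controls, a difference of 0.12 at an exact permutation p of 0.8. The smallest p that 3 samples against 3 allow is 0.1, and adjusted over the 3 tests each p was 0.9. These permutation tests used neither the pairs nor the dye. Exact sign-flip tests over the pairs gave a p of 0.5 for miR-199a-5p minus miR-199a-3p and 0.75 for miR-199a-5p minus miR-199b*. That for miR-214 minus miR-214* was larger. The value for Mir214 had either sign with other settings, so no direction is given for it. It reached 0.66 with arrays scaled to their 75th percentile or median and with no normalization alike. A shift of a whole array cancels in this difference.

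**Figure D5:**
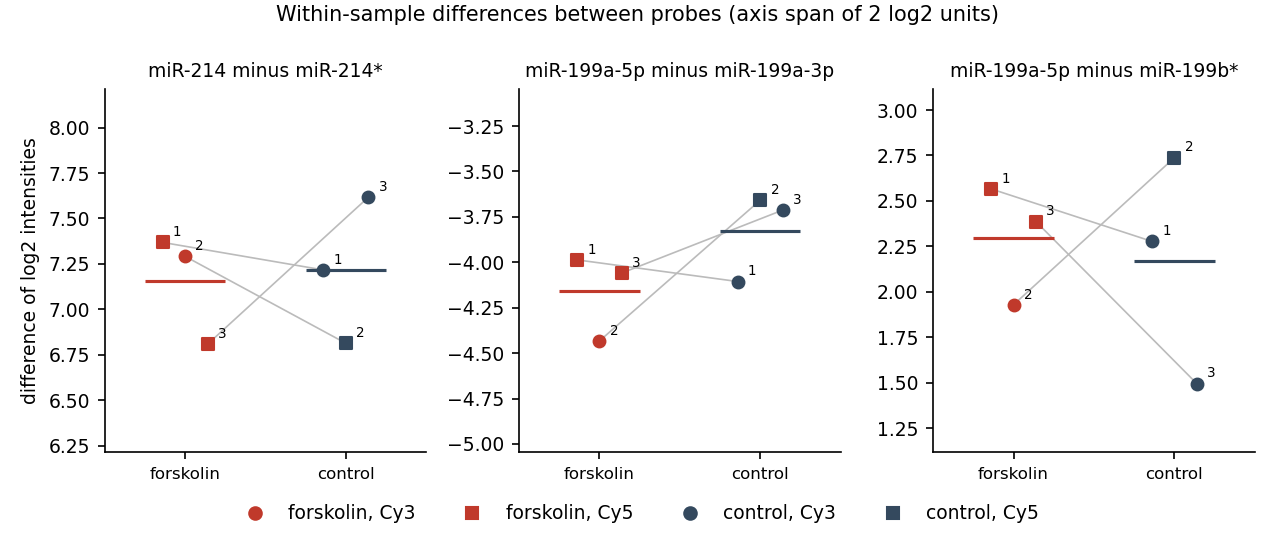
Difference of log2 intensities between 2 probes in each of 3 forskolin and 3 control samples, with grey lines joining the same replicate number (digits), bars for group means, circles for Cy3 and squares for Cy5. For miR-214 minus miR-214* the forskolin values of 6.81 to 7.37 overlap the control values of 6.81 to 7.62.

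The 5 spots of a probe set the technical precision within an array. Over the 5 spots of a probe the coefficient of variation was 1.24% to 7.48% for miR-199a-3p and 5.26% to 15.4% for miR-199b*. Between samples of a pair taken spot by spot, the SD of the log2 ratio over the 5 spots was 0.05 to 0.15 for the 5 probes. The pair differences of miR-199b* in log2 level were -0.29, -0.15 and -1.48, so pair 3 stood apart from the other pairs.

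The promoter of Dnm3os is shown because miR-214 and the Mir199a-2 copy of miR-199a are made from this transcript. The window runs from 250 bases before to 50 bases after the start, chr1:162217373-162217672 on the plus strand of GRCm38.p6, from RefSeq, with matched motifs in capitals. Both strands were searched for the cyclic AMP response element TGACGTCA, its core TGACG, and the E-box CANNTG that Twist1 and its relatives bind. The CArG box, bound by serum response factor in smooth muscle genes, was added after the sequence was read.
Dnm3os promoter: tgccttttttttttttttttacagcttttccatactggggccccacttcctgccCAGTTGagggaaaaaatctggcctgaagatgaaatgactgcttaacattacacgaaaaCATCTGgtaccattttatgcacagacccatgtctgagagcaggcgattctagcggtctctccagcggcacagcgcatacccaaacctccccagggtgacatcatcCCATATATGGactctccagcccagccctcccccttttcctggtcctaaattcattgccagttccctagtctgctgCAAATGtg

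Neither TGACGTCA, held by 1.79% of 32851 promoter windows of this length, nor TGACG, held by 20.8%, is in these letters. CANNTG occurs 3 times, starting at -196, -138 and 42 from the gene start, and is held by 72.3% of windows. The CArG box occurs 1 time, starting at -33, and is held by 1.63% of windows. None of these matches overlap, and a match or its absence says nothing on its own about binding.

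Across the 6 samples, miR-145 lay nearest to the mean pattern of the 5 probes among 162 other tested probes, at a root mean square distance of 0.11 log2 units between centred values. miR-125b-5p and miR-16 followed at 0.13 each, let-7a* at 0.15 and miR-106b* at 0.16. The log2 fold changes of these 5 probes were -0.40, -0.38, -0.39, -0.10 and -0.32, and none passed. Of the 5 miR-199 and miR-214 probes, miR-214 lay nearest to their mean, at 0.15, and miR-199b* farthest, at 0.31. Each of these is part of that mean, unlike the 162 other probes, so the distances of members and other probes are not alike.

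Among 18 miRNAs known from matrix and fibrosis, 14 were tested, 7 with a positive and 7 with a negative log2 fold change and a median of -0.045. Of these 1 rose and 0 fell at an adjusted p of 0.05 in limma. It was miR-30c, which in rat heart cells is known to repress connective tissue growth factor, with a log2 fold change of 1.55, SE 0.20. miR-132, miR-145 and miR-143, which followed by p, had 0.81, -0.40 and -0.51 and did not pass. With the replicate block, where 18% of tested probes passed in either direction, miR-132 passed too, at an adjusted p of 0.0427 in limma. The block fit used the same SE, 0.30, for every tested probe, so these p-values do not reflect each probe's own spread. On the smooth muscle list 9 of 12 probes were tested and 1 fell, miR-222, at -1.10, with a list median of -0.40. With the replicate block 2 fell, as miR-221, at -0.94, then had an adjusted p of 0.0147.

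Probes for other cell types differed in brightness. None of 7 epithelial, 2 endothelial or 6 blood probes was tested. The epithelial probes summed to 3.32 to 233 intensity units above the empty spots in forskolin cultures and 8.45 to 182 in controls, with the endothelial sum at 6.47 to 58.2 and 3.76 to 43.0, and the blood sum at 7.88 to 205 and 18.9 to 111. Of the kidney tubule list 4 of 6 were tested and 1, miR-30a*, rose, at a log2 fold change of 1.39. The tubule probes summed to 2630 to 4266 in forskolin cultures and 367 to 5280 in controls. These sums are not scaled between samples, and miR-30a and miR-30a* were the brightest of the 4 tested tubule probes in both groups. miR-30a was at 11.10 ± 0.41 and 10.61 ± 0.29, brighter than miR-199a-5p, miR-199b* and miR-214*. Probes differ in how well they bind, so this does not rank the molecules. miR-192 was at 6.71 ± 0.08 and 6.58 ± 0.11, and miR-194 at 6.90 ± 0.08 and 6.61 ± 0.14. Each was detected in 3 forskolin samples and 1 control. miR-204 and miR-215 were each detected in 1 forskolin sample and 0 controls. So were miR-200a, miR-126-3p, miR-223 and miR-124 of the epithelial, endothelial, blood and neural lists. Forskolin 2 had 585 detected probes, against 175 and 197 in forskolin 1 and 3. Detection in 1 forskolin sample alone therefore does not show a difference between the groups. Of the neural list 1 of 5, miR-128, was tested, at a log2 fold change of -0.082, and that list summed to 294 to 680 in forskolin cultures and 98.0 to 655 in controls. The part of such cells in the values of miR-199 and miR-214 was not tested.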

How the data were processed

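Small RNA was size-selected, tailed, tagged and stained with Cy3 or Cy5 by a service provider, per the labels' protocols. Per the file headers, scanner files give each spot's intensity in 1 dye without background removal. The authors also deposited a table of whole-number, linear intensities whose medians were 11, 11 and 10 in forskolin and 10, 11 and 8 in control samples. Its log2 values correlated with empty-spot-subtracted intensities at 0.982 to 0.999 across tested probes. How the authors scaled it is not given in the sources used here, nor are scanner and software. No column was left unused.

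Spots were corrected by normexp (offset 50), averaged over the 5 spots, log2-transformed and quantile-normalized over all miRNA probes. Detection needed a mean over that of the 669 empty spots by more than 3 SD. The 167 probes detected in all samples of a group were fitted with limma 3.58.1 (R 4.3.3) on treatment and dye, two-sided, with Benjamini-Hochberg adjustment at 0.05. The offset understates changes of dim probes such as miR-214*. Steps were tested on simulated data. The number of arrays limits the precision.

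Deviations from group means correlated at 0.397, 0.473 and 0.359 between forskolin and control samples of number 1 to 3, so the numbers were taken as pairs, from the data and not the labels. Members and lists were chosen with earlier results of these data known. Named miRNAs are the members, the 5 nearest in pattern, and up to 4 tested probes of a list by smallest p. Lists cover matrix and fibrosis, smooth muscle, epithelial, kidney tubule, endothelial, blood and neural miRNAs.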

Additional observations from a re-analysis of the deposited data

How the results depend on the processing

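Over 22 alternative fits the number of the 5 probes past an adjusted p of 0.05 in limma stayed at 0, while the number of all tested probes past it ran from 0 to 30, against 10. The smallest adjusted p over alternatives was 0.138 for miR-199a-5p, 0.210 for miR-214*, 0.219 for miR-199b*, 0.277 for miR-214 and 0.308 for miR-199a-3p. The median log2 fold change of the 5 stayed below 0 in 23 of 24 alternatives. With no normalization it was 0.15, miR-214 and miR-199a-3p were at 0.41 and miR-199a-5p at 0.15, and the cause was not tested. With scaling to the 75th percentile or the median of detected probes the median of the 5 was -0.55 and -0.57, where that of all tested probes was -0.22 and -0.24. With samples left out the median ran from -0.46 to -0.22, the last without replicate 3. With replicate block and dye term the adjusted p of miR-199a-5p was 0.158 and no probe of the 5 changed its call. The difference of miR-214 minus miR-214*, -0.060, turned to 0.071 with an offset of 16, 0.66 with scaling to the 75th percentile, with scaling to the median or with no normalization, 0.038 with the deposited table and 0.28 within Cy5. With samples left out it ran from -0.33 to 0.32. That of miR-199a-5p minus miR-199b*, 0.12, was -0.26 within Cy5 and -0.026 with the deposited table as the authors scaled it, and ran from -0.26 to 0.59 with samples left out. That of miR-199a-5p minus miR-199a-3p kept its sign in all 21 alternatives and ran from -0.56 to -0.11 with samples left out. It had the same value, -0.63, with scaling to the 75th percentile, to the median or with no normalization, so the alternatives are not separate checks. Without replicate 2 the dye and the treatment coincided, so the fit with both terms was not run. Signal over background limits miR-214* most.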
